A study of Mus musculus with 4 samples.

Results

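Leydig cells are the steroid-making cells of the testis interstitium. Among single-cell RNA-seq barcodes from testes of mice at postnatal day 15, 174 of 29592 barcodes were taken as steroidogenic Leydig cells. The 29592 barcodes are those with more than 1000 detected genes and less than 10% of unique molecular identifiers (UMIs, each standing for 1 captured transcript) from mitochondrial genes. A barcode was taken as a member when at least 3 of *Star*, *Cyp11a1*, *Cyp17a1*, *Insl3* and *Hsd3b1* had a UMI, when these 5 genes together made up at least 20 of every 10000 UMIs, and when no more than 2 UMIs came from *Dazl*, an RNA-binding protein gene of germ cells. The levels of these 6 genes therefore chose the cells, and their height against other cells is a description and not a result.

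The study asked what the germ cell protein MEIOC does when mouse germ cells pass from mitosis to meiosis. It compared 2 wild-type and 2 *Meioc*-null pups of the C57BL/6N strain, as 2 pairs of littermates, with each pair forming a batch that carries the same number as the replicate. Mice of both genotypes also carried 1 *Hspa2* mutant allele and a *ROSA26-tdTomato* reporter with its stop cassette intact. Libraries came from 1 testis per pup. Before the second digestion, the fluid above the settled tubules, which holds the interstitium, was thrown away, so the Leydig cells measured here are those that stayed with the tubules. In the germ cell barcodes (at least 3 *Dazl* UMIs), *Meioc* stood at 279 and 278 counts per 1000000 UMIs (CPM) in wild type, against 334 and 265 CPM in *Meioc*-null. Its transcripts were thus still counted in the mutants, and their 3′ counts do not check the genotype labels. Members held 3, 0, 1 and 4 *Meioc* UMIs in all. Unless said otherwise, 4 values in a row are those of wild type replicates 1 and 2 and then *Meioc*-null replicates 1 and 2.

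Steroid synthesis starts when STAR delivers cholesterol to the inner mitochondrial membrane, where CYP11A1 cuts its side chain with electrons passed on by ferredoxin reductase (*Fdxr*) and ferredoxin (*Fdx1*). The 3-beta-hydroxysteroid dehydrogenases and CYP17A1, which takes its electrons from the reductase POR, then carry pregnenolone to androgens. Luteinizing hormone drives these steps through its receptor LHCGR and cyclic AMP. In rodents a fetal population of Leydig cells, marked by *Dlk1* and *Thbs2*, is gradually outnumbered after birth by an adult population that later gains *Hsd3b6* and *Hsd17b3*.

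The members numbered 33, 47, 26 and 68, which is 0.521%, 0.553%, 0.344% and 0.943% of the barcodes of each library. The exact binomial 95% intervals ran from 0.359 to 0.731%, 0.407 to 0.735%, 0.225 to 0.504% and 0.733 to 1.19%, and they cover counting error only. *Meioc*-null replicate 1 had the lowest share and *Meioc*-null replicate 2 the highest, so the wild-type shares lay between them. The exact two-sided permutation test over libraries gave p = 1, and 2 against 2 libraries cannot give a p below 0.333. Within batches the wild-type share was higher by 0.177 percentage points in batch 1 and lower by 0.389 points in batch 2. Leaving out *Meioc*-null replicate 2 turned the difference of the means from -0.106 to 0.193 points. Another 15, 9, 14 and 25 barcodes met the rule on the 6 genes but not the filters, and they are not in these shares. At a mitochondrial limit of 5%, 7, 8, 8 and 9 members were left. These were 0.401%, 0.348%, 0.478% and 0.521% of the barcodes under that limit, with both *Meioc*-null shares above both wild-type shares (permutation test p = 0.333).

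All 5 rule genes had a UMI in 98 members, 4 of them in 47 members and 3 of them in 29. Another 70 barcodes had at least 3 of the genes but fell under the summed level. The members just inside that limit stood at 20.14, 20.15 and 20.16 per 10000 UMIs and the barcodes just outside at 19.98, 19.85 and 19.85. The median member had 16602, 16969, 16533 and 20058.5 UMIs and between 4010 and 4317.5 detected genes. Summed over members, the libraries held 556866, 904784, 469275 and 1624581 UMIs, and these sums, written as CPM, are the levels given below. UMIs were counted at transcript 3′ ends, so levels do not scale with transcript length. No member barcode sequence occurred as a member in 2 libraries, although each pair of libraries shared between 45 and 73 deposited barcode sequences.

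The label was checked against markers that the rule did not use. Fetal Leydig markers were low: *Dlk1* stood at 14.4, 9.95, 4.26 and 11.7 CPM, with a UMI in 25 members (14.4%) against 15.96% of germ cell barcodes, and *Thbs2*, *Mc2r* and *Crhr1* each at 0 to 4.26 CPM. A UMI of any of these 4 genes was found in 32 members, and no member had UMIs of more than 1 of them. *Dlk1* was instead high in the fibroblast-like barcodes, at a mean of 1042 CPM. Of the adult markers, *Vcam1*, a cell adhesion molecule, had a UMI in 163 members and *Hsd3b6* in 100, whereas *Hsd17b3*, the enzyme that makes testosterone from androstenedione, had one in only 17. *Hsd11b1*, *Ptgds* and *Sult1e1*, which mark late adult cells, stayed between 0 and 7.18 CPM. Of germ cell barcodes, which should lack these genes, 1.59% had a UMI of *Vcam1*, 0.297% of *Hsd3b6* and 0.873% of *Hsd17b3*. Only 1 of the 6 listed adult markers, *Hsd3b6*, was at least 4-fold above the Sertoli, myoid and fibroblast-like barcodes in every library.

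Markers of other cells were low in the members. The 6 macrophage markers summed to between 1.80 and 6.39 CPM, the 3 pericyte markers to between 1.80 and 10.7 CPM and the 5 endothelium markers to between 16.2 and 29.8 CPM, with *Adgre1*, *Itgam*, *C1qa*, *Lyz2*, *Tm4sf1* and *Rgs5* at 0. The germ cell markers summed to 84.4, 28.7, 36.2 and 15.4 CPM, against 2061 to 2267 CPM in germ cell barcodes, and wild type replicate 1 was the highest. *Dazl* is among these markers and helped to choose both sides. No *Dazl* UMI was found in 17 of 33, 34 of 47, 18 of 26 and 57 of 68 members. Scrublet, which scores barcodes as likely doublets, marked 4, 8, 12 and 6 members. The parts of doublets and free RNA in these germ cell UMIs were not tested. The Sertoli markers summed to between 151 and 299 CPM and the myoid markers to between 116 and 200 CPM, against 7484 to 7795 CPM and 18722 to 21334 CPM in barcodes of those types. *Dcn* (264 to 404 CPM) and *Pdgfra* (68.2 to 203 CPM) were the main fibroblast-like markers present, with *Lum* and *Dpt* at 0 to 4.31 CPM and *Clec3b* at 0 in every library. Conversely, the 5 rule genes summed to 9.63 to 15.9 CPM in germ cell barcodes, a cell type that should lack them, against 5068 to 6896 CPM in members. The Sertoli and myoid barcodes were chosen by their own markers and the members by the rule genes. These contrasts are therefore descriptions.

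Among the 5 rule genes, the libraries of the genotypes overlapped for 3 and lay apart for 2, as they did for 38.5% of the 6933 genes tested between genotypes. *Cyp11a1*, the side-chain cleavage enzyme, stood at 2439, 1206, 1551 and 1218 CPM, and *Hsd3b1* at 936, 1831, 2046 and 1147 CPM, so the summed levels of the genotypes overlapped for both. Both sums rested on few cells: a single cell held 12.3%, 25.0%, 23.4% and 21.3% of the *Cyp11a1* UMIs and 22.6%, 17.6%, 20.9% and 26.6% of the *Hsd3b1* UMIs in the 4 libraries. The median *Cyp11a1* level per cell was 22.9, 4.13, 9.91 and 6.13 UMIs per 10000. The *Hsd3b1* median per cell, 6.54, 11.8, 3.29 and 1.44 UMIs per 10000, was higher in both wild-type libraries than in both *Meioc*-null libraries. *Cyp11a1* and *Hsd3b1* helped to choose the cells, and neither was examined in cells chosen without it. A member could reach the summed level on other rule genes, of which *Star* and *Cyp17a1* stood higher in both *Meioc*-null libraries. The medians therefore depend on the rule, and no genotype difference is read from them. The deepest members, with 99756 and 97586 UMIs, were both in *Meioc*-null replicate 2 and had 42.6 and 50.8 *Hsd3b1* UMIs per 10000. *Insl3*, the peptide hormone of testis descent, stood at 862, 2510, 763 and 2017 CPM and was higher in batch 2 in both genotypes. *Star* stood at 332, 197, 1106 and 845 CPM, and *Cyp17a1* at 499, 108, 1430 and 1475 CPM, with both *Meioc*-null libraries above both wild-type libraries. A *Star* UMI was found in 28 of 33, 32 of 47, 26 of 26 and 68 of 68 members. The shallowest members had 1529, 2321, 2365 and 7189 UMIs, and the part of depth in these counts was not tested. In wild type replicate 2, *Cyp17a1* had a UMI in only 24 of 47 members, and 7 of its members had neither *Star* nor *Cyp17a1*.

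**Figure D1:**
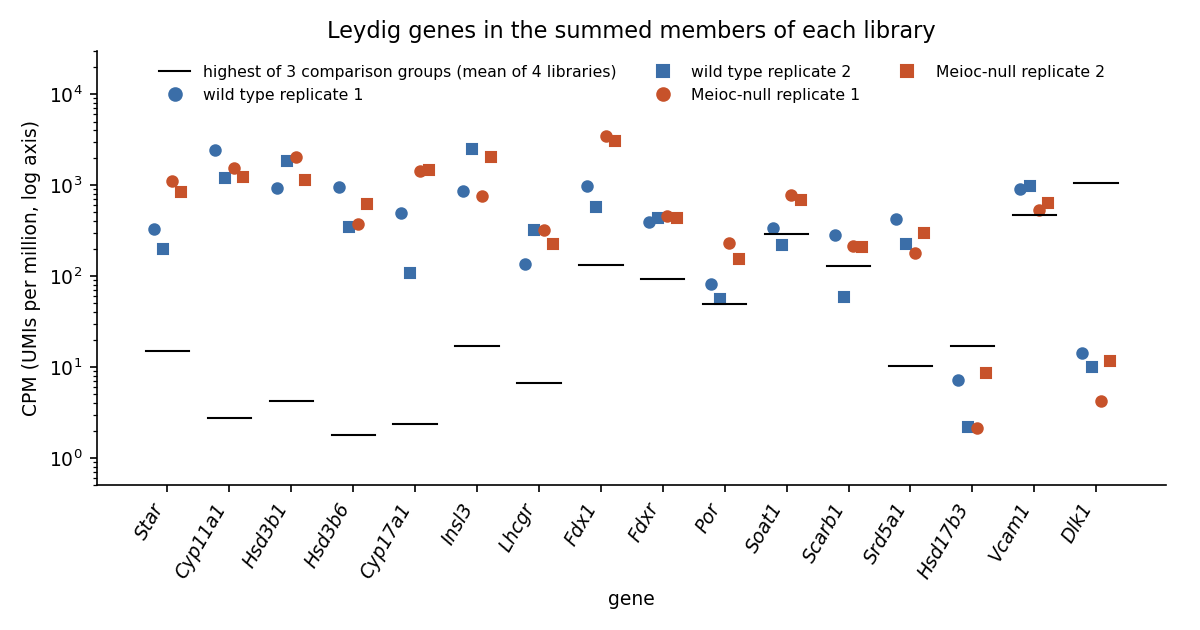
Levels of 16 Leydig cell genes in the summed members, in CPM on a log axis, with 1 point per library (blue, wild type; red, *Meioc*-null; circles, replicate 1; squares, replicate 2) and a black line at the highest of the Sertoli, myoid and fibroblast-like means. *Fdx1*, *Star* and *Cyp17a1* are above the wild-type points in both *Meioc*-null libraries, *Insl3* separates by replicate, and *Dlk1* lies far under the fibroblast-like level of 1042 CPM.

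Because *Star* and *Cyp17a1* helped to choose the cells, they were tested in cells chosen without them, an alternative added after the data were seen. This took the 114 barcodes with a UMI of each of *Cyp11a1*, *Insl3* and *Hsd3b1* that together reached the same summed level. *Star* stood there at 349, 219, 1349 and 986 CPM, which is a log2 fold change (wild type over *Meioc*-null) of -2.01 ± 0.27 (SE), with an adjusted p of 0.000308 in edgeR's quasi-likelihood test. *Cyp17a1* stood at 560, 124, 1584 and 1598 CPM, a log2 fold change of -2.22 ± 0.83, which did not pass in the same edgeR test (adjusted p = 0.681). *Insl3*, in 111 cells chosen without it, stood at 875, 1943, 718 and 2050 CPM, and its log2 fold change was 0.00 ± 0.87.

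Single cells were described next, in UMIs per 10000. The median member had 8.17, 4.63, 33.0 and 24.9 for *Fdx1*, which was found in every member. The lowest *Fdx1* value of a *Meioc*-null member was 3.87, so single cells of the genotypes overlapped although the medians were far apart. *Hsd3b6* was not detected in many members: it had a UMI in 18 of 33, 23 of 47, 11 of 26 and 48 of 68 members, and its upper quartile was 15.4, 8.34, 4.81 and 10.8. Of the 174 members, 141 had *Hsd3b1*, 100 had *Hsd3b6* and 81 had both. The members were thus not alike. Wild type replicate 2 members with 36937 and 13921 UMIs had *Hsd3b1* at 41.4 and 92.7 and no *Hsd3b6* or *Vcam1* UMI. A *Meioc*-null replicate 1 member with 32346 UMIs had *Hsd3b1* at 49.2 and also lacked both. These cells were picked after their values were seen. Whether the members hold more than 1 kind of Leydig cell was not tested.

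**Figure D2:**
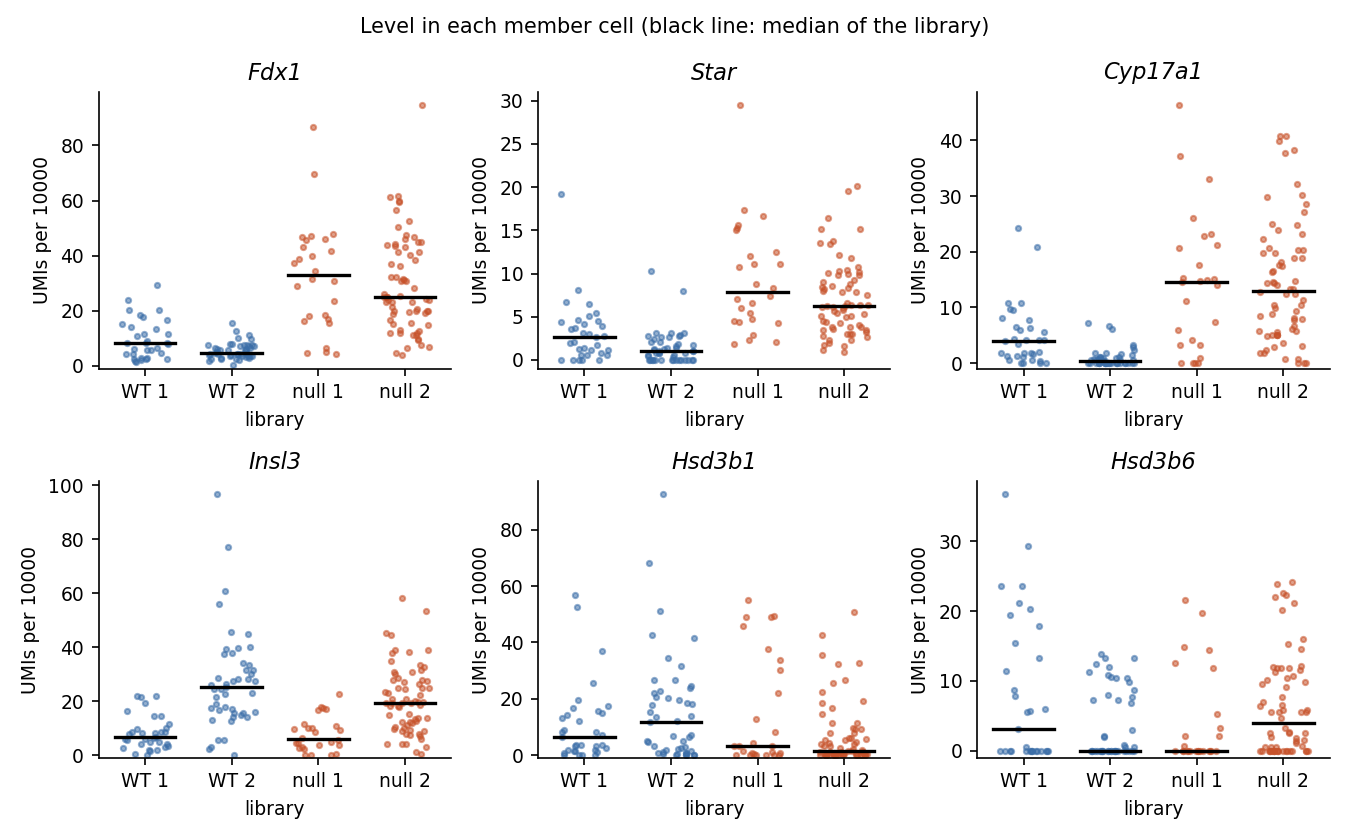
Level of 6 genes in each of the 174 member cells, in UMIs per 10000 UMIs of the cell, by library (WT, wild type; null, *Meioc*-null), with a black line at the median of each library. *Fdx1*, *Star* and *Cyp17a1* medians are higher in both *Meioc*-null libraries, *Insl3* medians in both replicates 2, and *Hsd3b6* is at 0 in many cells of each library.

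*Hsd3b1* (chr3:98852194-98859794, minus strand, GRCm38) and *Hsd3b6* (chr3:98805504-98814443, minus strand) are neighbours that code for related enzymes. Whether reads that match both genes were lost was not tested. Across members, Spearman's rho between them was -0.31, and it was -0.37, -0.32, -0.29 and -0.20 within the libraries. *Cyp11a1* and *Hsd3b1* went the other way, with a rho of 0.58 over all members and of 0.23, 0.67, 0.90 and 0.56 within libraries. These are descriptions over 174 cells that share 4 libraries, and the rule selects cells on the sum of several of these genes. Between *Star* and *Fdx1* rho was 0.63 over all members but 0.37, 0.20, 0.32 and 0.07 within libraries. *Fdx1* had a rho with the UMIs of the cell of -0.03 to 0.20 within libraries. This rho was 0.32, 0.20, 0.53 and 0.20 for *Star* and 0.04, 0.17, 0.47 and 0.21 for *Hsd3b1*. It ran from -0.05 to 0.22 for *Cyp17a1*, from -0.24 to 0.09 for *Insl3* and from -0.14 to 0.25 for *Hsd3b6*.

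The windows around the starts of these genes are shown so that the motifs of Leydig cell regulators can be read in them. They run from 250 bases before to 50 bases after the start, 5′ to 3′ along the gene, and come from RefSeq (GRCm38.p6). Capitals mark CAAGGNC (N, any base) and TATAA, each on either strand. CAAGGNC is a loose form of the core bound by steroidogenic factor 1 (*Nr5a1*), shortened by a base after the windows had been read. Binding was not tested. CAAGGNC is in 17.8% of all 32851 windows and TATAA in 24.9%. The *Insl3* window holds CAAGGNC at -137 and -57 and TATAA at -30 on the gene strand, which overlaps its match on the other strand. Neither the *Hsd3b1* nor the *Hsd3b6* window holds these letters. *Insl3* is at chr8:71689002-71689301 (plus strand), *Hsd3b1* at chr3:98859745-98860044 (minus strand) and *Hsd3b6* at chr3:98814394-98814693 (minus strand).
Insl3: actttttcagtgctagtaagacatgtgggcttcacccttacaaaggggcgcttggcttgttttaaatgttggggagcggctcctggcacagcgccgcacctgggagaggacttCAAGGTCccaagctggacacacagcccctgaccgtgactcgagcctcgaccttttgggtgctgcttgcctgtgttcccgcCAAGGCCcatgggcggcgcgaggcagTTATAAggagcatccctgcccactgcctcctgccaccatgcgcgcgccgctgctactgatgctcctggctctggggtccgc
Hsd3b1: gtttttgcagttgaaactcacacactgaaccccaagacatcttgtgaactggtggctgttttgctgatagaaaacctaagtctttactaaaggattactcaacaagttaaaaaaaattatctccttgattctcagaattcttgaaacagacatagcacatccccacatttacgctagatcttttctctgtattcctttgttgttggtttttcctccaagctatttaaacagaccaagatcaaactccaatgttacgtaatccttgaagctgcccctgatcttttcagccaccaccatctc
Hsd3b6: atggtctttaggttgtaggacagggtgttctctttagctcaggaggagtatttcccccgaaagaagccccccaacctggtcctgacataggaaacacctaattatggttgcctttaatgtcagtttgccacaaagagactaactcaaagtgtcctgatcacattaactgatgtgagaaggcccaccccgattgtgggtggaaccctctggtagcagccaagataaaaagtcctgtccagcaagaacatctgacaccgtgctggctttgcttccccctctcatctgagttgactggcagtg

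The members were then set beside 1101 Sertoli, 2600 myoid and 863 fibroblast-like barcodes that were chosen by the same form of rule. In every library, 28 of 15698 genes (0.178%) were at least 4-fold above each of the 3 groups, with 10 CPM added to every level. This is a description without a test, since the members were chosen by expression. The 5 rule genes were left out of this count. Of the genes counted, *Hsd3b6* had the highest ratio, at 49.5-fold over the highest group. *Lhcgr*, the receptor of luteinizing hormone, stood at 135, 317, 324 and 224 CPM and had a UMI in 146 members, and its ratio was 15.6. *Srd5a1*, which 5-alpha-reduces testosterone, stood at 426, 228, 179 and 299 CPM, with a ratio of 14.4. *Akr1cl*, an aldo-keto reductase, was the most abundant of the 15 genes with the highest ratios, at 3069, 3371, 2664 and 2129 CPM.

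The other genes with high ratios were those of a wide range of functions. *Kcnk3*, a potassium leak channel, had a ratio of 20.9, *Mrap*, an accessory protein of the corticotropin receptor, 18.8, and *Ren1*, renin, 18.3. *Igfbp2* (17.2), *Adh1* (14.4), *Serpina3g* (14.3) and *Hao2* (13.1) followed. *Akr1b7*, an aldose reductase-like enzyme of steroid-making cells, had a ratio of 12.2, and *Kit*, the receptor of stem cell factor, 9.68. *Cst8* and *Ass1* had ratios of 9.65 and 9.60. Germ cell barcodes were not among the groups behind these ratios, and *Kit* and *Igfbp2* stood there at means of 119 and 114 CPM.

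Of the 2 redox partners of CYP11A1, *Fdxr* was even across libraries, at 395, 432, 460 and 432 CPM, with a ratio of 4.32 over the highest group. *Cyb5a*, a cofactor of CYP17A1, was at 288 to 334 CPM, below the Sertoli mean of 735 CPM. *Cyp11b1* and *Cyp19a1*, the enzymes of corticosteroid and estrogen synthesis, had no UMI in any member. A count of 0 of 1624581 UMIs, in the deepest library, allows a level of up to 1.85 CPM. Of the 13 listed steroid enzymes and redox partners, 6 had a UMI in over 25% of members.

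All 20 listed genes of cholesterol synthesis had a UMI in over 25% of members, and 2 of them were 4-fold above the other groups. One of these was *Fdps*, which makes farnesyl pyrophosphate, with a ratio of 6.80. *Hmgcs1*, the synthase at the start of the pathway, stood at 695, 538, 458 and 609 CPM. None of 14 cholesterol supply genes reached 4-fold. *Apoe* was high, at 1516, 1208, 831 and 1503 CPM, but also stood at a mean of 1639.6 CPM in the fibroblast-like barcodes. *Scarb1*, the receptor of high-density lipoprotein, varied within wild type, at 284 and 58.6 CPM against 215 and 207 CPM in *Meioc*-null.

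Of the receptors, *Prlr*, for prolactin, was abundant and even at 691, 576, 620 and 662 CPM, while *Fshr*, the receptor of follicle-stimulating hormone in Sertoli cells, had no UMI. *Nr5a1* (steroidogenic factor 1) was at 98.8, 109, 83.1 and 84.9 CPM, close to the Sertoli mean of 75.3 CPM. *Nr0b1*, a repressor of NR5A1, was at 6.39 to 7.18 CPM against 246 CPM in Sertoli barcodes. *Nr2f2* (151 to 221 CPM) and *Tcf21* (53.3 to 88 CPM), factors of stromal progenitors, were present but lower than in myoid barcodes, at 740 and 784 CPM. The hedgehog targets *Ptch1*, *Gli1* and *Hhip* were likewise under the myoid means, with *Ptch1* at 43.1 to 74.6 CPM against 779 CPM.

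Members were rarely in division. At least 3 of *Mki67*, *Top2a*, *Ccna2*, *Ccnb1*, *Cdk1*, *Plk1*, *Aurkb*, *Bub1*, *Ube2c* and *Cenpf* had UMIs in 11 of 174 members, namely 5, 1, 2 and 3 per library. *Mki67* had a UMI in 18 members and *Top2a* in 26. Both genes also have a UMI in 82.4% and 94.7% of germ cell barcodes, whose median depth of 13089.5 to 16788 UMIs was near that of members. The part of free RNA in these counts was not tested.

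Whether *Meioc* genotype moved with transcript levels in Leydig cells was tested on the summed counts of the 4 libraries. The test took 6933 genes, each detected in at least 25% of the members of either genotype, and 104 (1.50%) passed edgeR's quasi-likelihood test with Benjamini-Hochberg adjustment, at an adjusted p under 0.05 and an absolute log2 fold change over 0.1. Wild type had the higher level for 41 of them (0.591%) and *Meioc*-null for 63 (0.909%). At an unadjusted p under 0.05 there were 692. With the littermate pair as a block, 46 genes (0.663%) passed in edgeR, 8 with the higher level in wild type and 38 in *Meioc*-null, and 45 of them were among the 104. DESeq2 called 26. The count was 23 without *Meioc*-null replicate 1 and 18 without *Meioc*-null replicate 2, but 100 and 78 without wild type replicate 1 or 2. All 104 genes had ranges that did not overlap between genotypes, which also held for 38.5% of all genes tested. The median log2 fold change of all tested genes was 0.01. The rule also used *Star* and *Cyp17a1*, which stood higher in both *Meioc*-null libraries, so it may have admitted different cells in each genotype. In the 25, 37, 13 and 39 barcodes chosen without these 2 genes, 37 of 7258 genes passed in edgeR. Of these, 36 were among the 104. How far the choice of cells shaped the other calls was not tested. Counts of called genes in the lists below stand beside the 1.50% called of all genes tested. No list was tested as a set.

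**Figure D3:**
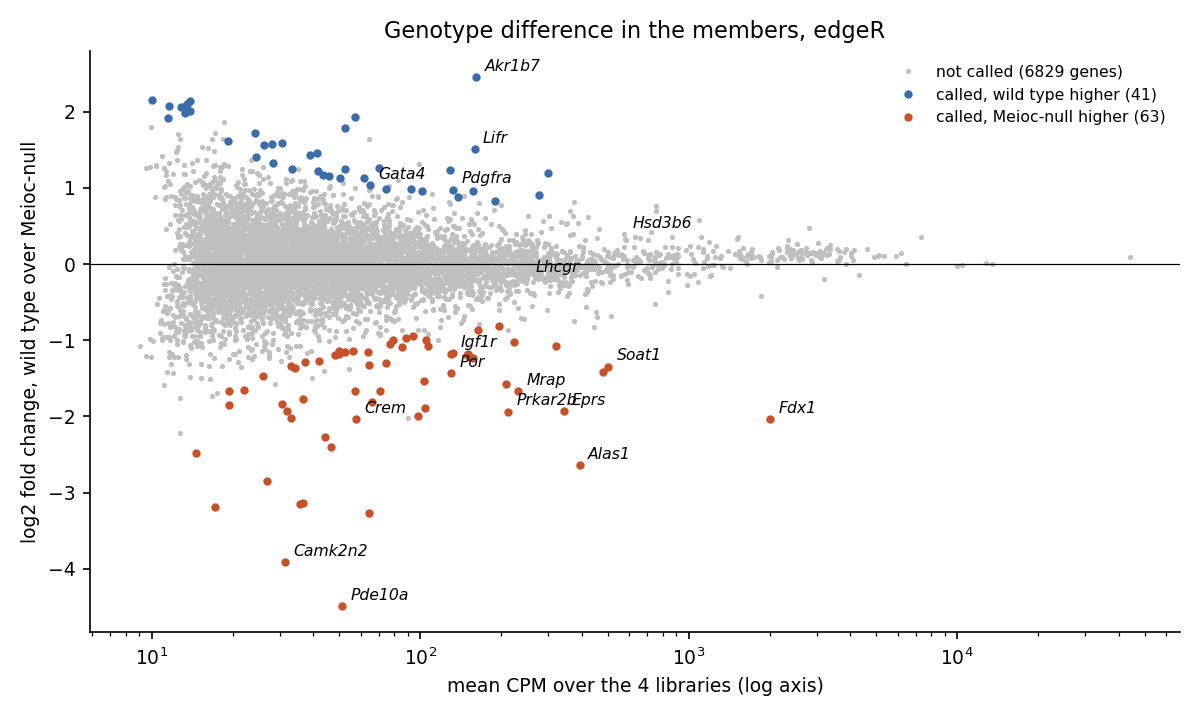
Log2 fold change of wild type over *Meioc*-null in the members, by mean CPM on a log axis, for 6933 tested genes, with 41 called genes higher in wild type in blue and 63 higher in *Meioc*-null in red. *Fdx1*, at -2.04, is the most abundant called gene, and the points of *Lhcgr* and *Hsd3b6* lie among the genes that were not called.

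*Alas1*, *Fdx1* and *Por* were higher in *Meioc*-null Leydig cells, whereas *Fdxr* and *Cyb5a*, which also serve the steroid-making cytochromes P450, did not pass. *Fdx1*, the electron donor of CYP11A1, stood at 982, 568, 3435 and 3073 CPM. Both *Meioc*-null libraries lay far above both wild-type libraries, with a log2 fold change of -2.04 ± 0.22 (SE) and an adjusted p of 9.83e-08 in edgeR. *Alas1*, the first and rate-limiting enzyme of heme synthesis, stood at 98.8, 114, 590 and 770 CPM. Its log2 fold change was -2.64 ± 0.24 with an adjusted p of 1.01e-10 in edgeR, the lowest of all genes, and it had a UMI in 63.8% of wild-type and 95.7% of *Meioc*-null members. *Por*, the electron donor of CYP17A1, stood at 82.6, 55.3, 230 and 154 CPM (log2 fold change -1.43 ± 0.25, edgeR adjusted p = 0.000342). The call of *Por* was lost without *Meioc*-null replicate 1, at an adjusted p of 0.140 in edgeR.

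The windows at the starts of *Fdx1* and *Alas1* are shown because *Alas1* had the lowest p and *Fdx1* the highest level of the called genes. Capitals here mark CAAGGNC and TATAA on either strand. The windows were also searched on both strands for TGACG, the half-site of the cyclic AMP response element, which is in 20.8% of all windows. The *Fdx1* window (chr9:51963553-51963852, minus strand) holds CAAGGNC at -124 on the strand opposite to the gene and TATAA at 17, also on the opposite strand. *Alas1* has windows at 2 starts. That of the second (chr9:106247681-106247980, minus strand) holds CAAGGNC at -123, and that of the first, not printed, holds TGACG at -186. Of the 63 genes higher in *Meioc*-null, 50 have a window, and TGACG was found for 23 of these (46.0%) against 39.5% of all tested genes with a window. CAAGGNC was found for 13 of the 50 (26.0%) against 20.7%. Of 27 genes higher in wild type with a window, 9 (33.3%) had TGACG and 8 (29.6%) had CAAGGNC. The letters TATAA were found for 4 of the 50 and for 12 of the 27 (44.4%), against 15.2% of tested genes. These shares are descriptions of letters in a window.
Fdx1: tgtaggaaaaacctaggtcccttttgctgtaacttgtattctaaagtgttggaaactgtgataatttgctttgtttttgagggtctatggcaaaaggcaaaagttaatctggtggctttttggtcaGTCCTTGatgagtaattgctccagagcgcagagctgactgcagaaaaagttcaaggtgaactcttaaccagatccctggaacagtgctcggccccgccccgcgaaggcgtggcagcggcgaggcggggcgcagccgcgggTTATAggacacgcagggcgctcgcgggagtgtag
Alas1: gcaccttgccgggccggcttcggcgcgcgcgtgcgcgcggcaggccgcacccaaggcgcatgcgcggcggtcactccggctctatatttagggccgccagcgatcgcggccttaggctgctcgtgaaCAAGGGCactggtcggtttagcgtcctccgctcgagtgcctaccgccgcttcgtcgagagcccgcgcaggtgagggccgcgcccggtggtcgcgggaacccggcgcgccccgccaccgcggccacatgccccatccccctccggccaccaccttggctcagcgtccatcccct

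Among the 10 genes with the lowest p were *Pde10a* and *Prkar2b*, which act in cyclic AMP signalling but are not on its list. *Pde10a*, a phosphodiesterase that breaks down cyclic AMP and cyclic GMP, stood at 5.39, 3.32, 100.2 and 96.0 CPM and had a UMI in 5.00% of wild-type but 74.5% of *Meioc*-null members. Its log2 fold change was -4.49 ± 0.43 with an adjusted p of 1.67e-10 in edgeR. *Pde10a* met the detection limit of the test only through *Meioc*-null. Its level in each wild-type library was that of 3 UMIs, so the size of its fold change is uncertain. *Prkar2b*, a regulatory subunit of protein kinase A, stood at 93.4, 80.7, 324 and 352 CPM (log2 fold change -1.94 ± 0.23, edgeR adjusted p = 1.06e-07). Of the 12 listed cyclic AMP genes, 8 were tested and *Crem*, a cyclic AMP response factor, was the one that passed. It stood at 30.5, 15.5, 98.0 and 86.8 CPM (log2 fold change -2.04 ± 0.32, edgeR adjusted p = 2.87e-05). Without *Meioc*-null replicate 2 its adjusted p was 0.0919 in edgeR. The median log2 fold change of the 8 genes was -0.16. *Prkar1a*, at 251, 213, 375 and 345 CPM, did not pass (adjusted p = 0.223 in edgeR).

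The receptor at the head of this pathway did not pass the test. The log2 fold change of *Lhcgr* was -0.18 ± 0.39 (adjusted p = 0.945 in edgeR), with wild type replicate 1 below the other 3 libraries. Of 9 tested hormone receptors only *Igf1r* passed, at 89.8, 70.7, 190 and 177 CPM (log2 fold change -1.17 ± 0.24, edgeR adjusted p = 0.00239). Its call was lost without wild type replicate 2, *Meioc*-null replicate 1 or *Meioc*-null replicate 2, at adjusted p of 0.114, 0.113 and 0.216. The median of the 9 receptors was 0.01.

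Of 6 tested steroid enzymes and redox partners, *Fdx1* and *Por* passed, both higher in *Meioc*-null, and the median of the 6 was 0.03. *Hsd3b6*, at 964, 344, 373 and 617 CPM, had a fold change of 0.39 ± 0.73 on the log2 scale (edgeR adjusted p = 0.935), and its range in wild type spanned that of *Meioc*-null. *Fdxr* and *Srd5a1* did not pass either, with log2 fold changes of -0.07 ± 0.21 and 0.42 ± 0.33.

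Of 14 tested cholesterol supply genes, 1 rose and 1 fell in *Meioc*-null. *Soat1*, which esterifies cholesterol for storage, stood at 338, 220, 769 and 677 CPM, a log2 fold change of -1.35 ± 0.23 with an adjusted p of 0.000114 in edgeR. Its adjusted p in edgeR was 0.0975 without wild type replicate 2, 0.0563 without *Meioc*-null replicate 1 and 0.0594 without *Meioc*-null replicate 2. With the littermate block *Soat1* passed and the call in the other direction was lost. The median of the list was 0.08.

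Of 20 cholesterol synthesis genes, 1 passed in edgeR, higher in wild type, and that call was lost with the littermate block. The median of the 20 genes was 0.21.

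Some genes of the stromal and progenitor lists were lower in *Meioc*-null. *Lifr*, the receptor of leukemia inhibitory factor, stood at 226, 245, 76.7 and 89.3 CPM, a log2 fold change of 1.51 ± 0.23 with an adjusted p of 2.21e-05 in edgeR. *Pdgfra*, a receptor of platelet-derived growth factor, stood at 203, 153, 68.2 and 105 CPM, a log2 fold change of 0.98 ± 0.24 with an adjusted p of 0.0262 in edgeR. Only 3 of 16 alternatives kept this call. The call of *Pdgfra* was lost with the littermate block (0.118) and without wild type replicate 1, *Meioc*-null replicate 1 or *Meioc*-null replicate 2 (0.201, 0.465 and 0.190). These were 2 of 5 tested progenitor genes, with a list median of 0.53. *Dcn*, a fibroblast-like marker that *Pdgfra* is listed with, did not follow it, at 277, 271, 264 and 404 CPM.

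Of 9 tested transcription factors, *Gata4* passed, at 75.4, 101, 34.1 and 49.2 CPM (log2 fold change 1.04 ± 0.27, edgeR adjusted p = 0.0370). Only 3 of 16 alternatives kept this call. The call was lost with the littermate block (0.0770) and without wild type replicate 2, *Meioc*-null replicate 1 or *Meioc*-null replicate 2 (0.513, 0.453 and 0.374). *Nr5a1* did not pass, at a log2 fold change of 0.34 ± 0.24, and the list median was 0.46. *Vcam1*, one of 2 tested adult markers, stood at 898, 966, 526 and 641 CPM, a log2 fold change of 0.70 ± 0.21 that did not pass (adjusted p = 0.0946 in edgeR).

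Other lists showed no call in edgeR. None of 12 immediate early and heat shock genes passed (median 0.16), nor any of 18 antioxidant genes (median -0.03), 7 secreted factor genes (median 0.16), 4 hedgehog response genes (median 0.34) or 2 cell cycle genes (median -0.25). Of the marker lists of other cells, 2 Sertoli, 1 myoid, 1 endothelium and 2 fibroblast-like genes were tested, and *Pdgfra* was the one that passed. No fetal Leydig, germ cell, macrophage or pericyte marker and no gene of MEIOC and its partners was detected in enough members to be tested. *Hspa1a*, a heat shock gene, followed the batches instead, at 539, 74.1, 477 and 73.2 CPM.

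The remaining genes among the 10 with the lowest p were all higher in *Meioc*-null. *Eprs*, a transfer RNA synthetase for glutamate and proline, stood at 142, 134, 654 and 439 CPM (log2 fold change -1.93 ± 0.23, adjusted p = 1.06e-07 in edgeR). *Slc7a1*, a transporter of cationic amino acids, stood at 35.9, 38.7, 194 and 125 CPM (-1.99 ± 0.27). *Arhgap28* stood at 12.6, 12.2, 91.6 and 142 CPM (-3.26 ± 0.34), and *Etnk2*, an ethanolamine kinase, at 14.4, 14.4, 81.0 and 76.9 CPM (-2.41 ± 0.34). *Camk2n2*, an inhibitor of a calmodulin-dependent kinase, stood at 5.39, 2.21, 72.5 and 45.6 CPM (-3.92 ± 0.51), and *Gm37350* at 48.5, 40.9, 141 and 186 CPM (-1.88 ± 0.26). *Gm37350* was the one of these whose call was lost without a library, *Meioc*-null replicate 2 (adjusted p = 0.0832 in edgeR). *Arhgap28*, *Etnk2* and *Camk2n2* met the detection limit of the test only through *Meioc*-null. They had a UMI in 17.5%, 23.75% and 6.25% of wild-type members, against 80.9%, 67.0% and 59.6% of *Meioc*-null members. The *Camk2n2* level was that of 3 UMIs in wild type replicate 1 and of fewer in replicate 2, so the size of its fold change is uncertain.

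Among the 15 genes with the highest ratios over the comparison groups, 3 passed the genotype test in edgeR, against 1.50% of all genes tested. *Akr1b7* stood at 365, 186, 42.6 and 54.2 CPM, a log2 fold change of 2.45 ± 0.29 with an adjusted p of 1.34e-05 in edgeR, although its UMIs came from 28.8% of wild-type and 25.5% of *Meioc*-null members. Its adjusted p was 0.0680 without *Meioc*-null replicate 1 and 0.0919 without *Meioc*-null replicate 2. *Kcnk3* stood at 189, 314, 880 and 539 CPM (log2 fold change -1.42 ± 0.26, adjusted p = 0.00185 in edgeR) and *Mrap* at 142, 84.0, 247 and 454 CPM (-1.67 ± 0.33, adjusted p = 0.0370). Of 16 alternatives, *Kcnk3* kept its call in 7 and *Mrap* in 12. With the littermate block in edgeR the calls of *Kcnk3* (0.0725) and *Mrap* (0.164) were lost. *Kcnk3* was also lost without wild type replicate 1 (0.0625) or *Meioc*-null replicate 1 (0.191), and *Mrap* without *Meioc*-null replicate 2 (0.422).

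The same libraries allow the genotype difference of the members to be set against that of the 3 comparison groups, by an interaction term in edgeR that was added after the data were seen. Of 6600 genes with at least 10 UMIs in each comparison group and genotype, 79 (1.20%) passed, 49 of which were among the 104. *Fdx1* stood at 96.3 to 154 CPM in all 12 comparison sums, and its difference in members exceeded theirs by -2.07 on the log2 scale (adjusted p = 0.0137 in edgeR). *Alas1* stood at 36.9 to 130 CPM in those sums, with a difference of -2.51 (adjusted p = 3.40e-08 in edgeR). *Lifr* stood at 36.8 to 100.1 CPM, with a difference of 1.64 (adjusted p = 7.44e-06 in edgeR). Within each comparison group the genotypes of *Fdx1* overlapped.

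**Figure D4:**
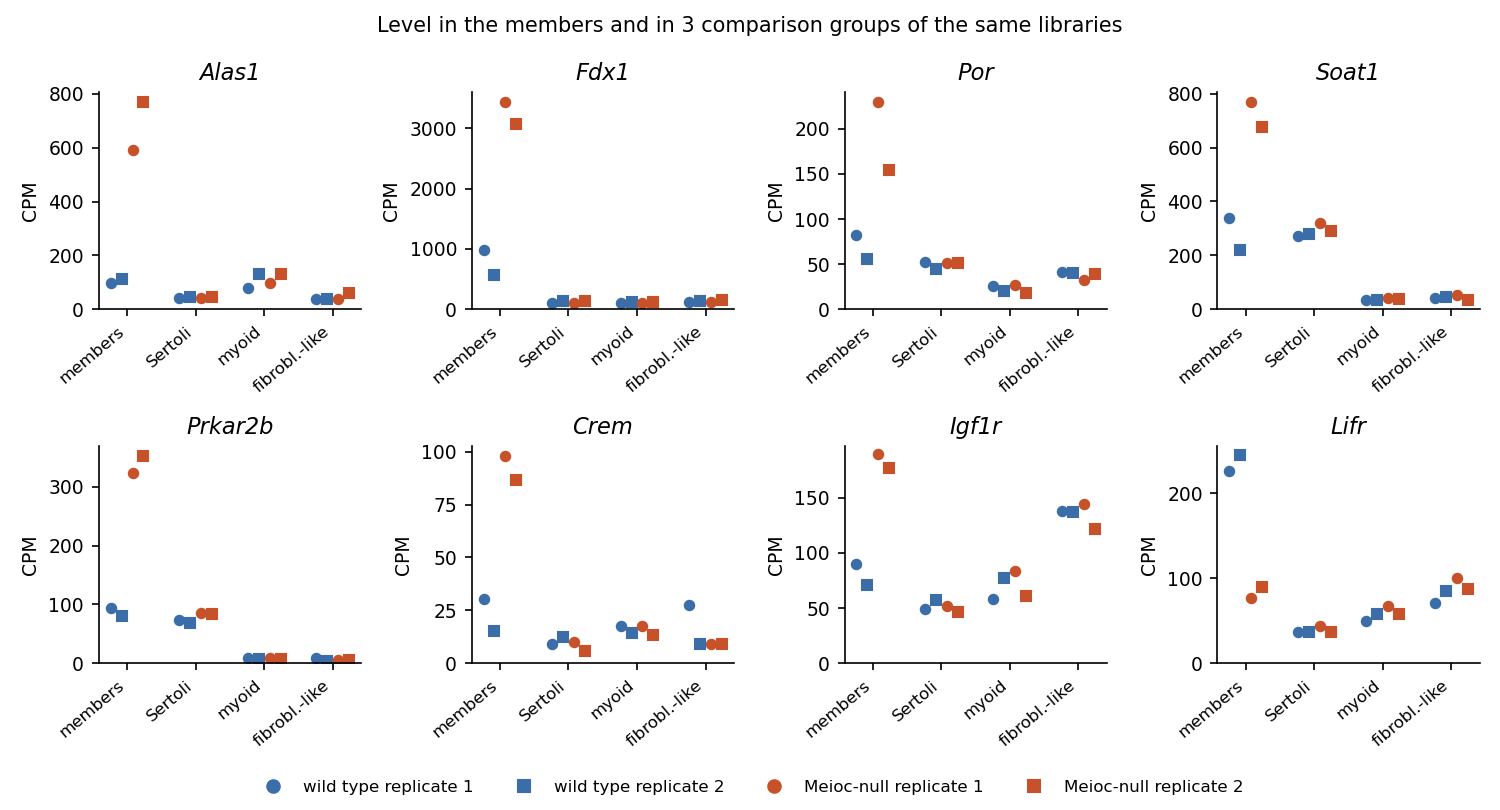
CPM of 8 genes in the members and in the Sertoli, myoid and fibroblast-like barcodes, with 1 point per library (blue, wild type; red, *Meioc*-null; circles, replicate 1; squares, replicate 2) and axes from 0. In the members, *Fdx1* stands at 3435 and 3073 CPM in *Meioc*-null and at 982 and 568 CPM in wild type, while all 12 comparison sums lie between 96.3 and 154 CPM.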

How the data were processed

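Testis cells of 4 pups, 2 wild type and 2 *Meioc*-null, were grouped by the genotype and replicate number of the labels. The authors counted reads with Cell Ranger 4.0.0 against GRCm38 and deposited raw UMI counts per gene and barcode, with no normalization, and these counts were used as deposited. Members and gene lists were chosen with earlier results of these data known. Cells were filtered at the study's limits of 1000 genes and 10% mitochondrial UMIs. The study also removed doublets by a score that was not used here, and instead Scrublet (scanpy 1.11.5) marked 4, 8, 12 and 6 of the members, which were removed only as an alternative.

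UMI counts were summed over the members of each library and tested with edgeR 4.0.16 in R 4.3.3 (quasi-likelihood, TMM, robust), with genotype as the only term and the littermate pair as an alternative block. Genes needed a UMI in 25% of the members of either genotype, and 36 of the 104 called genes met this in 1 genotype only. The 5 rule genes and *Dazl* were not tested. The labels tie equal numbers to littermates of 1 batch, so the replicate numbers pair the samples. Deviations of equal numbers had a correlation of -0.01 over genes. DESeq2 1.42.0 was an alternative. Each library is 1 pup, so p-values measure the spread between pups. On simulated counts for 6939 genes in this comparison, 90% of 4-fold and 14% of 2-fold changes were called, with 3 false calls. The simulation gave every gene the same spread between libraries and no batch effect. Its rates may therefore not hold for genes that vary more.

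Comparison groups were barcodes with at least 3 of their 5 markers, a summed level of at least 20 per 10000 UMIs, no more than 2 *Dazl* UMIs and membership in only 1 group. Ratios used CPM with a pseudocount of 10. Named genes were those of the lists, the 10 lowest p of the genotype test and the 15 highest ratios. Coordinates came from GENCODE vM21 (GRCm38) and promoter windows from RefSeq (GRCm38.p6), which held 3 of the 5 rule genes. The motif letters of steroidogenic factor 1 were shortened by a base after the windows had been read. Total UMIs per library ran from 158291903 to 190455307. Some listed genes are not reported here by name, and counts over lists include them.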

Additional observations from a re-analysis of the deposited data

Results flagged for a closer look

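The genotype difference in the Leydig cells differed from that in the Sertoli, myoid and fibroblast-like barcodes of the same libraries, by an interaction term in edgeR, for 14 of the genes named above. The differences of the log2 fold changes (wild type over *Meioc*-null, members minus comparison groups) were -2.51 for *Alas1*, -2.98 for *Arhgap28*, -2.07 for *Fdx1*, -1.81 for *Prkar2b*, -1.89 for *Eprs*, -2.06 for *Slc7a1*, -1.30 for *Gm37350* and -2.27 for *Etnk2*. They were -1.48 for *Por*, -1.27 for *Soat1*, -1.27 for *Igf1r* and -2.54 for *Crem*. For genes higher in wild-type members they were 0.97 for *Gata4* and 1.64 for *Lifr*. *Pde10a*, *Camk2n2*, *Akr1b7*, *Kcnk3*, *Mrap* and *Pdgfra* were not in this test. The highest adjusted p of the 14 was that of *Gata4*, at 0.0445 in edgeR.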

How the results depend on the processing

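With 26 to 68 members per library, genes simulated with a 2-fold change were mostly not called. Against 104 genes called, 46 passed with the replicate block, 26 in DESeq2, 23 at a mitochondrial limit of 5% (32 members left), 48 with at least 4 rule genes, 49 at a summed level of 40, 53 with no *Dazl* UMI and 38 without Scrublet barcodes. Of the alternatives added after the data were seen, 37 passed in cells chosen without *Star* and *Cyp17a1*, 48 without *Insl3* and 62 with a stricter limit on markers of other types. Leaving out 1 library each gave 18 to 100. The number of genes 4-fold above the comparison groups went from 28 to 18 at the 5% limit, 79 with 1 CPM added and 6 with 50 CPM, and leaving out 1 library each gave 29 to 34. The share difference of -0.106 points turned to 0.0587 in cells chosen without *Star* and *Cyp17a1*, and leaving out 1 library each gave -0.405 to 0.193.

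Of 20 named genes called, 6 (*Alas1*, *Pde10a*, *Arhgap28*, *Fdx1*, *Prkar2b* and *Eprs*) kept their call in all 16 alternatives. Their highest adjusted p was 0.0469 for *Fdx1*. The direction turned at the 5% limit for *Kcnk3* (0.31). Among genes not called, *Fdxr* turned to 0.021 with no *Dazl* UMI, 0.026 in cells chosen without *Insl3* and 0.29 with the stricter limit. When libraries were left out, *Lhcgr*, *Hsd3b6*, *Fdxr*, *Srd5a1* and *Scarb1* also changed sign, with ranges of -0.97 to 0.29, -0.50 to 0.96, -0.15 to 0.0087, -0.066 to 0.93 and -1.80 to 0.45. *Scarb1* passed without wild type replicate 1 (-1.80, edgeR adjusted p = 1.58e-05). The cause was not tested.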

Other observations

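Of the other genes called higher in *Meioc*-null Leydig cells, 5 are given here. They were picked after their values were seen and form no tested group. *Slc7a5*, a transporter of large neutral amino acids, stood at 25.1, 29.8, 124 and 86.2 CPM in wild type replicates 1 and 2 and *Meioc*-null replicates 1 and 2 (log2 fold change -1.81, adjusted p = 6.42e-05 in edgeR). *Slc7a11*, the cystine transporter, stood at 50.3, 19.9, 107 and 106 CPM (-1.67, adjusted p = 0.00113 in edgeR). *Slc38a1*, a glutamine transporter, stood at 5.39, 6.63, 95.9 and 35.1 CPM (-3.14, adjusted p = 0.00271 in edgeR). It had a UMI in 5.00% of wild-type and 29.8% of *Meioc*-null members, and *Slc7a11* in 17.5% and 55.3%. Both met the 25% detection limit only through *Meioc*-null. *Elovl6*, which lengthens fatty acids, stood at 59.3, 45.3, 166 and 143 CPM (-1.53, adjusted p = 8.94e-05 in edgeR), and *Acly*, which makes cytosolic acetyl-CoA, at 82.6, 97.3, 185 and 233 CPM (-1.19, adjusted p = 0.00164 in edgeR). All 5 passed with the littermate block. Without *Meioc*-null replicate 1 the edgeR call was lost for *Slc7a5* (adjusted p = 0.0541), *Slc38a1* (0.0541) and *Slc7a11* (0.123). Without *Meioc*-null replicate 2 it was lost for *Elovl6* (0.0635), *Acly* (0.424) and *Slc7a11* (0.368), and without wild type replicate 2 for *Slc7a11* (0.149).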
